A study of Mus musculus with 4 samples.

Results

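The regions described here were the places in the islet genome that were well covered by methylated DNA tags in every library and held fewer tags in βRapKO than in WT. MeDIP-seq, which sequences immunoprecipitated methylated DNA, was run on 4 libraries, 2 from WT and 2 from βRapKO islets of mice 8 weeks old. WT islets came from Raptor lox/lox mice without Cre, and βRapKO islets from Raptor lox/lox mice with RipCre, so the floxed allele was common to both groups and RipCre was carried by βRapKO alone. An effect of RipCre itself and an effect of the loss of Raptor therefore cannot be told apart here. The labels give C57BL/6 as the background, the study's methods name a mixed background for the RIP-Cre line, and the rat insulin promoter drives Cre in insulin-expressing cells, while an islet also holds other endocrine, vascular and immune cells. In such a mixed sample, fewer cells of a methylated type and less methylation per cell cannot be told apart. Peaks of the 4 libraries that shared at least 1 bp were joined into regions, and the tags of each library in a region were divided by its tags after removal of duplicates and multiplied by 1000000 (CPM). Of 180857 joined regions on the 19 autosomes, 72519 had a peak in all 4 libraries and 41508 held at least 50 tags in each library, called well covered. Of these, 646 (1.56%) had a mean WT CPM more than 1.5 times the mean βRapKO CPM and are the members. As the members were chosen by this difference, their WT and βRapKO values are a description and were not tested.

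Methylation of cytosine in CpG pairs is laid down and kept by DNA methyltransferases, among which DNMT3A methylates new sites and DNMT1 copies the mark after replication. Most CpG sites in gene bodies, between genes and in repeats are methylated in somatic cells, while CpG islands at active gene starts are usually free of methylation, and distal regulatory elements in use tend to lose it. MeDIP-seq enriches sheared DNA with an antibody against methylated cytosine, so its signal rises with both the methylated share and the density of CpG sites, and it does not give a methylation level per site. mTORC1, of which RAPTOR is an essential component, couples nutrient and growth factor signals to translation in beta cells.

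The sequences under the WT summits show how different the members were. Each run below holds 200 bases of the plus strand of GRCm38 (mm10), centred on the summit of the WT peak with the most tags, with each CpG in capitals. The first 4 belong to members among the 5 with the largest ratio for which a window was taken, the next 3 to members at gene starts with high CPM, and the last to the member upstream of Nkx6-1.
Tspan9, chr6:128077467-128077666: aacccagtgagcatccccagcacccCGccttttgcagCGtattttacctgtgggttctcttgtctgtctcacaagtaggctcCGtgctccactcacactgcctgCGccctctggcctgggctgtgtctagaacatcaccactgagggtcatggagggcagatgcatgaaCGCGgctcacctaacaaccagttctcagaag
Rasgef1b, chr5:99713792-99713991: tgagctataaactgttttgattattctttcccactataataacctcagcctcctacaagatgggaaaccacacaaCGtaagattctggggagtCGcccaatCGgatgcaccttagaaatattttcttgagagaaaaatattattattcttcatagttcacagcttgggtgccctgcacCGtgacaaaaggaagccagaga
Zfp423, chr8:87756533-87756732: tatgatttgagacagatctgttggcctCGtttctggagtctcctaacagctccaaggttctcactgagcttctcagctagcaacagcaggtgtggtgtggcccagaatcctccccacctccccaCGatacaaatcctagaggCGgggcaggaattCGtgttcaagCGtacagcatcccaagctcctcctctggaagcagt
near Pou3f1, chr4:124647248-124647447: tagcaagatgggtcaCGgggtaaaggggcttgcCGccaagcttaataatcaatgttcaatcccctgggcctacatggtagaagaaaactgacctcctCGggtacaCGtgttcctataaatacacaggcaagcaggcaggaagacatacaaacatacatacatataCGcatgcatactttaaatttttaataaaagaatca
Cort and Cenps, chr4:149130815-149131014: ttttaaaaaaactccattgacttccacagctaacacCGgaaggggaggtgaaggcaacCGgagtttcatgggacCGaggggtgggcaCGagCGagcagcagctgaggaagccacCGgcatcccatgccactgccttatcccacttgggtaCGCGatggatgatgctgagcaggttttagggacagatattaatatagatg
Ctsz, chr2:174436460-174436659: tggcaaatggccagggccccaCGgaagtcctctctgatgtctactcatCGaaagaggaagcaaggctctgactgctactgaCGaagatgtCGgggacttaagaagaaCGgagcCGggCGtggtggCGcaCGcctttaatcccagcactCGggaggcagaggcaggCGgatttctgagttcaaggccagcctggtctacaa
Pde6c, chr19:38132978-38133177: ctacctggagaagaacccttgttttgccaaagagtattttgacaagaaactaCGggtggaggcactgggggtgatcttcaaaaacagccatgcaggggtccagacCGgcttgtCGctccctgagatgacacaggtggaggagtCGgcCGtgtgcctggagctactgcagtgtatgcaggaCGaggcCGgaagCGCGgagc
upstream of Nkx6-1, chr5:101668253-101668452: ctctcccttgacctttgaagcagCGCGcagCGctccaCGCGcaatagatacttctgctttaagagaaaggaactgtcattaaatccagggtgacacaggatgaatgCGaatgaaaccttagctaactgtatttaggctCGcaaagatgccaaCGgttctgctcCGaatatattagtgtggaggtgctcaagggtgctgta
Of the 8 windows, those in Tspan9, at Pde6c and upstream of Nkx6-1 held 6, 9 and 9 CpG sites and no masked base. The window in Ctsz had the most CpG sites, with 11, and 47% of its bases were masked. Over all 646 members, the summit window held a median of 7 CpG sites, and over all well-covered regions a median of 8.

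The members were moderately covered regions in which WT libraries had about 1.6 times as many tags as βRapKO libraries. The median member stood at 4.69 CPM in WT replicate 1, at 4.76 CPM in WT replicate 2, and at 2.60 and 2.83 CPM in the βRapKO libraries. The ratio of the means had a median of 1.62 and ran from just above 1.5 to 2.78, while over all well-covered regions its median was 1.06. Both βRapKO libraries lay below both WT libraries in 599 members (92.7%), against 12471 (30%) of all well-covered regions, and the rule used the same values. In the other direction, 352 well-covered regions held more than 1.5 times as many tags in βRapKO.

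The difference in tags lay mainly in the length of the peaks. Peaks were called in each library on its own, so the tags of a region rise with the number of bases its peaks cover. In the median member, the peaks covered 2313 and 2180 bp in WT replicates 1 and 2, and 1382 and 1458 bp in βRapKO replicates 1 and 2. The ratio of mean covered lengths, WT over βRapKO, had a median of 1.44 in the members and 0.941 in all well-covered regions. Tags per kb of covered bases and per 1000000 tags (tag density) had a median ratio of 1.13 in the members and also 1.13 in all well-covered regions. The members were thus longer stretches of peak in WT, with a tag density that differed between genotypes about as it did elsewhere. Covered length was below WT in both βRapKO libraries at 396 members (61.3%), against 6.90% of all well-covered regions. Tag density was below WT in both βRapKO libraries at 300 members (46.4%), against 46.3% of all well-covered regions. Fold enrichment over the local background, which the peak caller gives at the summit, had a median ratio of 1.14 in the members and 1.10 over all regions. Regions with more tags in βRapKO had the mirror form, with a median length ratio of 0.515 and a median density ratio of 1.15.

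**Figure D1:**
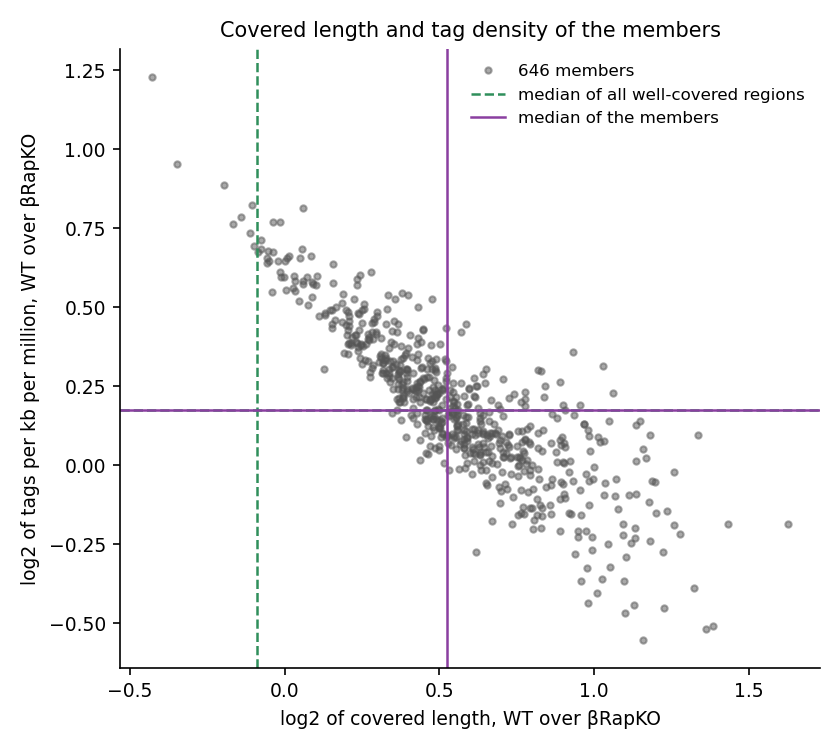
Covered length and tag density of the 646 members. Each point is a member, the x axis gives log2 of the ratio of mean covered length and the y axis log2 of the ratio of mean tag density, both WT over βRapKO. Solid lines mark the medians of the members and dashed lines those of all well-covered regions. The members' median length ratio (1.44) lies to the right of that of all regions (0.941), and the median density ratio is 1.13 in both, so the horizontal lines coincide.

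The 10 members with the largest ratio were mostly long intronic or exonic peaks that were shorter in βRapKO. In intron 7 of Ust, which encodes a sulfotransferase acting on chondroitin and dermatan sulfate chains, the region chr10:8234279-8238300 had 5.32 and 6.03 CPM in WT, and 1.71 and 2.36 CPM in βRapKO. This was the largest ratio among the members (2.78), with a log2 fold-change of -1.48 ± 0.204 (SE of the edgeR fit). The peaks covered 2857 and 3839 bp in WT, and 773 and 1395 bp in βRapKO. Tags per kb and per 1000000 were 1.86 and 1.57 in WT, and 2.21 and 1.70 in βRapKO. All 4 summits lay close together, and the WT peaks ran further to one side, while mean density was no lower in βRapKO. Density was averaged over each library's own peak, which was longer in WT. Fold enrichment at the summit was lower in both βRapKO libraries, with 7.71 and 5.82 in WT, and 5.52 and 5.39 in βRapKO. The window of 200 bases at the WT summit, which is not printed above, held 2 CpG sites and 91.5% of its bases were masked.

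In Sik1, which encodes a salt-inducible kinase of cAMP signalling, the region over exons 11 to 14 (chr17:31844148-31848665) rested on 1 library. It had 2.97 CPM in WT replicate 1 and 11.4 CPM in WT replicate 2, and 2.67 and 2.71 CPM in βRapKO. WT replicate 1 was thus close to both βRapKO libraries, and the peak covered 4402 bp in WT replicate 2 and between 1061 and 1124 bp in the others. Rap1gap, a GTPase-activating protein for Rap1, had the same form over exons 21 to 25, with 4.30 and 9.07 CPM in WT, and 2.74 and 2.98 CPM in βRapKO. In both genes the groups did not overlap, but the gap between the WT libraries was larger than that between WT replicate 1 and βRapKO.

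By CPM, the groups at the other large ratios lay further apart than the libraries within each. At none of them was fold enrichment in both βRapKO libraries below that of both WT libraries. Nr4a1, which encodes the immediate-early nuclear receptor Nur77, had the most tags among these 10. The region spanned exons 3 to 8 (chr15:101269589-101275018) and had 11.4 and 11.01 CPM in WT, and 3.76 and 5.69 CPM in βRapKO. In intron 1 of Tspan9, a tetraspanin, WT had 6.49 and 5.43 CPM, and βRapKO 2.60 and 2.23 CPM. In intron 5 of Zfp423, a zinc finger transcription factor of progenitor cells, WT had 4.89 and 4.69 CPM, and βRapKO 2.16 and 1.82 CPM. None of these βRapKO values reached a WT value. Rasgef1b, which encodes a guanine nucleotide exchange factor of Ras proteins, had 5.79 and 6.22 CPM in WT, and 2.29 and 2.60 CPM in βRapKO, in a part of the gene outside its principal transcript. Its length ratio was 2.22 and its density ratio 1.10. Fold enrichment there was higher in both βRapKO libraries, with 5.22 and 4.99 in WT, and 5.34 and 6.25 in βRapKO. In the lncRNA gene Gm2164, 7695 bp upstream of the POU factor gene Pou3f1, WT had 4.14 and 5.87 CPM, and βRapKO 1.99 and 2.23 CPM. The remaining members of the 10 lay in intron 4 of Cpxm2, a member of the carboxypeptidase family, with a ratio of 2.38, and between genes on chromosome 13, with a ratio of 2.33.

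**Figure D2:**
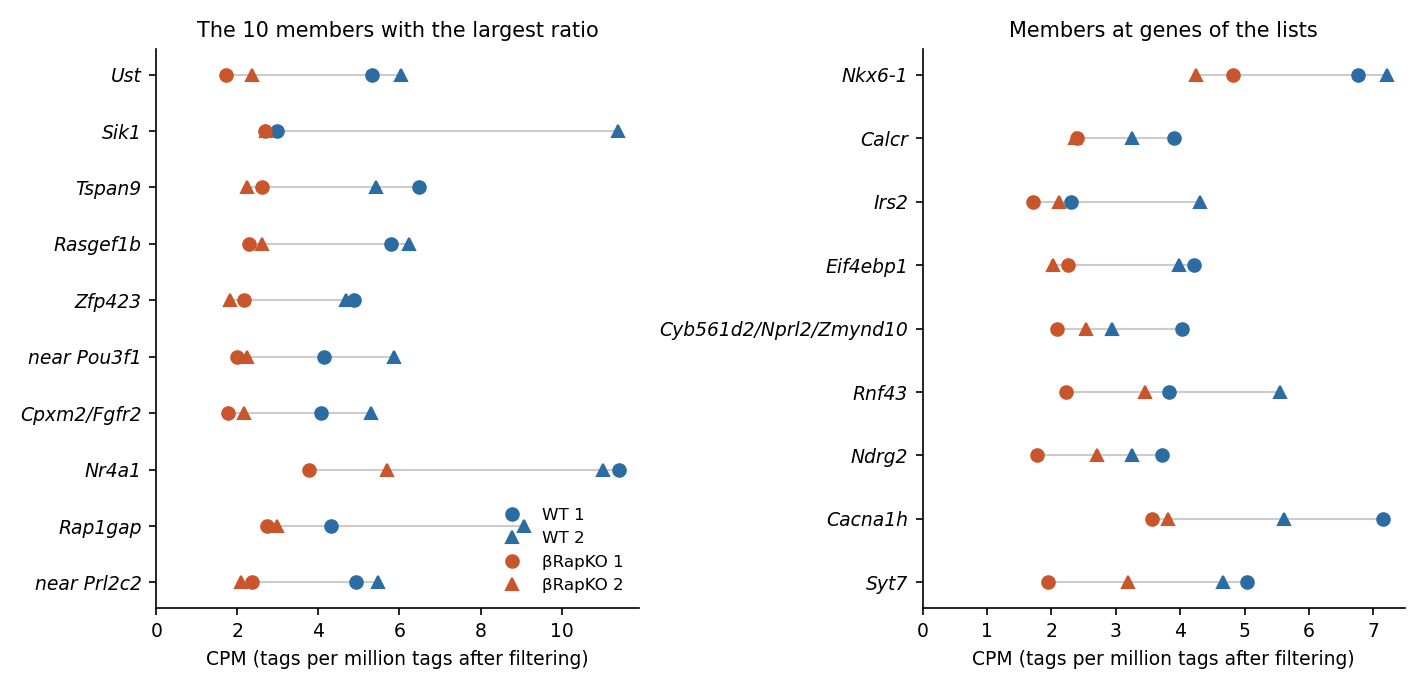
CPM in each library at the 10 members with the largest ratio (left) and at members in genes of the lists (right). Each row is a region, the x axis gives CPM, circles are replicate 1 and triangles replicate 2, blue is WT and orange βRapKO. At Sik1, WT replicate 1 (2.97 CPM) sits beside the βRapKO libraries and WT replicate 2 (11.4 CPM) far to the right.

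The members with the highest CPM were of another kind, since 8 of the 10 lay in repetitive sequence outside protein-coding genes. The most covered member overlapped the lncRNA gene Gm48362 (chr9:25855817-25863834, 251707 bp from Eepd1) and had 27.4 and 26.3 CPM in WT, and 13.3 and 14.6 CPM in βRapKO. Its peaks covered 7766 and 7123 bp in WT, and 4096 and 3766 bp in βRapKO, with 3.53 and 3.69 tags per kb in WT, and 3.26 and 3.89 in βRapKO. The βRapKO libraries lacked a peak over the left part of the region, where both WT libraries had one. The next member by CPM, chr15:43330371-43336089, was 99.7% soft-masked, with 18.7 and 19.4 CPM in WT, and 12.7 and 12.6 CPM in βRapKO. A member near Sorl1 (chr9:41906367-41912425) owed its ratio of 2.27 mostly to βRapKO replicate 2, with 21.4 and 21.5 CPM in WT, and 14.6 and 4.32 CPM in βRapKO. No base of that member was covered in all 4 libraries. In the member near Vmn1r227 (chr17:20747028-20753692), WT replicate 2 (11.4 CPM) was close to βRapKO (9.99 and 10.5 CPM), and WT replicate 1 had 22.3 CPM.

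These 8 regions resembled each other or other covered regions in sequence. Of the 31-base words in each, 85.2% to 93.4% also occurred in another well-covered region, on either strand, while the median over all members was 1.04%. Tags from near-identical copies can be assigned to the wrong copy, and how reads with several matches were treated is not given in the sources used here, so the values of these 8 regions are uncertain. Of the members of the 10 in genes, 1 spanned exons 3 to 17 of Jak3, a kinase of cytokine receptors, and had 1.9% of such words. At Jak3, WT had 15.6 and 17.4 CPM, while βRapKO replicate 1 had 6.54 CPM and βRapKO replicate 2, with 14.1 CPM, lay close to WT.

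**Figure D3:**
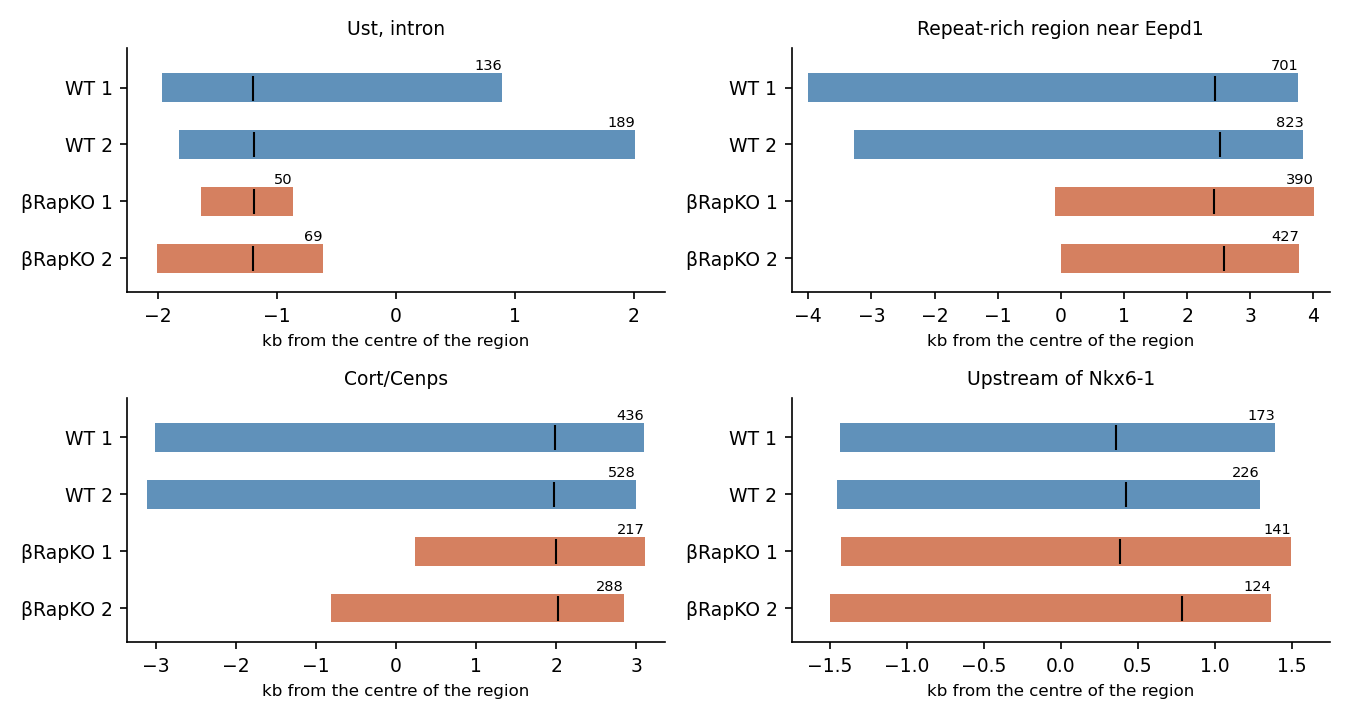
Peaks of each library at 4 members: the largest ratio (Ust), the highest CPM (the repeat-rich region near Eepd1), a gene start with high CPM (Cort and Cenps) and the member upstream of Nkx6-1. Bars are peaks, the x axis gives kb from the centre of the joined region, black ticks are summits and numbers are tags. In the first 3 panels the WT peaks extend further to one side than those of βRapKO, and upstream of Nkx6-1 the 4 peaks have nearly the same ends.

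At gene starts, taken as 2 kb upstream to 500 bp downstream of a protein-coding start, 33 members were found (5.11%), against 3.46% of all well-covered regions. Cortistatin, a peptide related to somatostatin, is encoded by Cort, whose start lay in a member that also covered exons 3 to 5 of Cenps (chr4:149125831-149132049). The region had 17.0 and 16.9 CPM in WT, and 7.43 and 9.87 CPM in βRapKO, and its peaks covered 6107 and 6110 bp in WT, and 2872 and 3656 bp in βRapKO. By CPM the groups were well apart, and the density ratio was 1.05. Fold enrichment was 4.63 and 4.13 in WT, and 4.98 and 4.38 in βRapKO. At Kcnip1, which encodes a protein that binds voltage-gated potassium channels, WT had 8.68 and 7.76 CPM, and βRapKO 3.56 and 3.63 CPM. The member at the start window of Mlx, the dimerisation partner of the glucose-responsive factor ChREBP, lay over exons 1 to 9 of the adjoining Coasy, of coenzyme A synthesis. It had 6.37 and 7.79 CPM in WT, and 4.79 and 4.56 CPM in βRapKO. Ctsz, which encodes cathepsin Z, had 9.85 and 12.9 CPM in WT, and 9.07 and 5.18 CPM in βRapKO, so βRapKO replicate 1 was close to WT replicate 1. Pde6c, a cone phosphodiesterase gene, had 9.498 and 11.1 CPM in WT, and βRapKO replicate 2 (8.95 CPM) was close to WT while βRapKO replicate 1 had 4.48 CPM. Members that reached the start windows of Wdr46 and of Cntnap1, which encodes a protein of the myelinated axon, had ratios of 1.55 and 1.69. The first lay over exons 12 to 18 of Rgl2 and exons 3 to 4 of Pfdn6, and the second over exons 2 to 7 of Plekhh3.

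Genes known for beta cell function held small numbers of members. Of 39 well-covered regions in or up to 2 kb upstream of 12 islet transcription factor genes, 2 were members (5.13%, against 1.56% of all well-covered regions), 1 of them at Nkx6-1. As many of the 39, also 2, held more than 1.5 times as many tags in βRapKO. Nkx6-1, which encodes a homeodomain factor needed for beta cell identity, had a member 1438 bp upstream (chr5:101666434-101669429). It had 6.76 and 7.21 CPM in WT, and 4.83 and 4.25 CPM in βRapKO, or 6.99 ± 0.319 and 4.54 ± 0.407 (mean ± SD, n = 2 each), and a log2 fold-change of -0.62 ± 0.148 (SE). Its peaks covered 2830 and 2748 bp in WT, and 2927 and 2866 bp in βRapKO, so the length did not differ in the direction of the tags. Tags per kb and per 1000000 were 2.39 and 2.62 in WT, and 1.65 and 1.48 in βRapKO, and fold enrichment was 6.46 and 6.84 in WT, and 5.59 and 5.25 in βRapKO. Upstream of Nkx6-1 tag density and summit enrichment were thus lower in both βRapKO libraries at a similar covered length, and the summit of βRapKO replicate 2 lay 790 bp from the centre of the region, against 361 to 422 bp in the others.

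Of 75 regions in genes of insulin secretion, 2 were members (2.67%). Upstream of Cacna1h, which encodes a T-type calcium channel subunit, WT had 7.15 and 5.62 CPM, and βRapKO 3.56 and 3.81 CPM. In intron 4 of Syt7, a calcium sensor of exocytosis, WT had 5.04 and 4.66 CPM, and βRapKO 1.95 and 3.19 CPM. By group means the covered length carried both differences, with length ratios of 1.87 and 1.89 and density ratios of 0.931 and 0.985. At Syt7, however, no base was covered in all 4 libraries. Each WT library had 2 peaks there and each βRapKO library 1. Tag density at Syt7 was 2.527 and 2.142 in WT, and 1.676 and 3.065 in βRapKO. Fold enrichment was 7.48 and 7.46 in WT, and 4.97 and 8.89 in βRapKO, so the βRapKO libraries lay on either side of WT in both.

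In the mTOR pathway 3 of 63 regions were members (4.76%). Eif4ebp1 encodes 4E-BP1, a translation repressor that mTORC1 inactivates, and the member in its intron 1 had 4.22 and 3.99 CPM in WT, and 2.26 and 2.02 CPM in βRapKO. Irs2 encodes an insulin receptor substrate, and the member in its exon 1 had 2.31 and 4.31 CPM in WT, and 1.71 and 2.12 CPM in βRapKO. Nprl2 encodes a subunit of GATOR1, which restrains mTORC1 when amino acids are scarce, and the member over exons 3 to 10 had 4.03 and 2.94 CPM in WT, and 2.09 and 2.54 CPM in βRapKO. By CPM, only at Eif4ebp1 among these 3 members did the groups lie further apart than the libraries within each. Covered length carried that difference, with a length ratio of 1.79 and a density ratio of 1.08. Fold enrichment at Eif4ebp1 was 3.58 and 5.63 in WT, and 6.61 and 5.63 in βRapKO, so it was not lower in βRapKO.

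Of 38 regions in disallowed genes, which are repressed in mature beta cells, 1 was a member. It covered exons 2 to 5 of Ndrg2, a stress-responsive gene, with 3.71 and 3.26 CPM in WT, and 1.78 and 2.71 CPM in βRapKO, and joining peaks by at least 50% overlap turned its direction (log2 fold-change 0.24). Of 76 regions in imprinted genes 1 was a member, in exon 16 of Calcr, the calcitonin receptor gene. There WT had 3.91 and 3.26 CPM, and βRapKO 2.40 and 2.36 CPM, with a length ratio of 0.926 and fold enrichment of 23.6 and 21.3 in WT, and 14.3 and 12.9 in βRapKO. Of 86 regions in Wnt pathway genes 1 was a member, over exons 8 to 9 of Rnf43, a ubiquitin ligase that lowers Wnt receptors. It had 3.83 and 5.55 CPM in WT, and 2.22 and 3.46 CPM in βRapKO. None of 30 regions in genes of DNA methylation and none of 24 in marker genes of acinar, duct and other cells was a member. Each list held between 0 and 3 members, a share of 0% to 5.13% against 1.56% over all regions, and such small counts do not set any list apart. The median ratio of the lists' regions was between 1.05 and 1.12, and 1.06 over all well-covered regions.

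Among gene families, 6 of 191 regions in Kcn genes (3.14%, against 1.56% of all well-covered regions), of potassium channels and their partners, were members, among them regions at Kcnh2, Kcnh3, Kcnh4, Kcnip1 and Kcnn2. In Slc genes, of solute carriers, 9 of 469 regions (1.92%) were members, and in Zfp genes, of zinc finger proteins, 7 of 352 (1.99%). Protocadherin genes (Pcdh) had 2 of 59 (3.39%), vomeronasal receptor genes (Vmn) 1 of 44, olfactory receptor genes (Olfr) 0 of 79 and collagen genes (Col) 0 of 96. No well-covered region lay in a Hox gene. With 0 to 9 members each, these counts do not set any family apart.

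Most genes with a member had only 1. Members lay in or just upstream of 461 of the 9986 genes with a well-covered region, 27 genes had at least 2 and 5 genes at least 3, and 214 members lay in no gene. Msi2, which encodes an RNA-binding protein of stem cells, had 3 members among only 9 regions. In its intron 7 (chr11:88441356-88446071), WT had 11.5 and 10.9 CPM, and βRapKO 5.48 and 4.97 CPM. In intron 6, WT had 7.82 and 12.6 CPM, and βRapKO 5.75 and 5.38 CPM. In intron 5, WT had 6.72 and 7.56 CPM, and βRapKO 2.50 and 5.24 CPM. The groups did not overlap at any of the 3, and their length ratios were 1.91, 1.76 and 1.43.

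Tshz2, a zinc finger gene, had 3 members among 19 regions, with ratios of 1.75, 1.66 and 1.68. Thsd4, which encodes a protein of the extracellular matrix, had 3 among 21, with ratios of 1.55, 1.61 and 1.71. The member of Thsd4 with the ratio of 1.61 was nearly as long in both genotypes (length ratio 0.929), and the one with 1.71 rested on WT replicate 1 (6.25 CPM, against 2.57 to 2.78 CPM in the other libraries). In the latter no base was covered in all 4 libraries. The annotated bodies of Fgfr2 (4 of 73 regions) and Gm20388 (6 of 186) span many other genes. The members counted for Fgfr2 lay outside its principal transcript, in Tacc2, Btbd16, Cpxm2 and the lncRNA gene Gm5602. Those counted for Gm20388 lay in Gse1, Zfpm1, Il17c, Piezo1 and Afg3l1, and at Il17c and Afg3l1 the direction turned without WT replicate 1 (log2 fold-change 0.17 and 0.09).

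Genes with 2 members included Rxra, a nuclear receptor for retinoids, Smad3, a mediator of TGF-β signalling, and Cdkal1, a tRNA-modifying enzyme, which were chosen for mention after their values were seen. In exon 5 of Rxra, WT had 4.07 and 3.80 CPM, and βRapKO 2.36 and 2.30 CPM. In exons 2 to 4 of Smad3, WT had 3.21 and 6.26 CPM, and βRapKO 2.09 and 2.78 CPM. In exon 14 of Cdkal1, WT had 5.75 and 7.53 CPM, and βRapKO 4.24 and 3.43 CPM. Of the 461 genes with a member, 20 also had a region with more tags in βRapKO, against 189 of all 9986 genes with a well-covered region. Thsd4 (1 such region) and Gm20388 (2) were among them. The number of regions in each gene was not taken into account.

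A small set of 36 members (5.57%), against 3.10% of all well-covered regions, had a density more than 1.5 times higher in WT. The same was found in 29 of the 352 regions with more tags in βRapKO (8.24%), so it was not particular to the members. The 36 members were chosen after their values were seen. They were compact, with a median width of 1434 bp against 2749 bp in the other members, their median length ratio was 0.987, and their median fold enrichment was 9.52 against 6.62. Besides Nkx6-1, Calcr and a region in Thsd4, they included exon 16 of Rasgrp1, a guanine nucleotide exchange factor gene of Ras proteins, where density was 2.88 and 3.01 tags per kb and per 1000000 in WT, and 1.44 and 1.61 in βRapKO. In exon 2 of the forkhead factor gene Foxo6, density was 3.46 and 4.13 in WT, and 2.03 and 2.69 in βRapKO. Between genes, 4697 bp from the axon guidance gene Slit2 (chr5:48312430-48313354), fold enrichment was 26.7 and 20.6 in WT, and 14.99 and 15.2 in βRapKO. The largest density ratio was 2.34, in a lncRNA gene on chromosome 9 (chr9:80588346-80589681), where density was 3.77 and 3.73 in WT, and 1.66 and 1.54 in βRapKO. At the last region the peaks covered 861 and 959 bp in WT, and 1112 and 1336 bp in βRapKO, and at Rasgrp1 990 and 1006 bp in WT, and 1264 and 1277 bp in βRapKO. In both the longer βRapKO peaks are part of the density ratio.

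Sequence and position, which the rule did not use, set the members beside all well-covered regions as follows. The members were wider, with a median of 2694 bp against 1749 bp, and richer in G and C bases, with 49.3% against 47.3%. They had slightly fewer CpG sites, with a median of 1.86 per 100 bp against 1.99, and the ratio of observed to expected CpG was 0.304 against 0.359. Repeats were scarcer, with 17.3% of bases soft-masked against 27.3%, and 75 members (11.6%) were more than 50% masked, against 32.5% over all regions. A median of 1.04% of their 31-base words occurred in another well-covered region, against 4.4% over all regions. Regions with more tags in βRapKO were also wide (2986 bp), but their G and C content (46.1%) and masked share (28.3%) were near those of all regions. These are descriptions, with no test, and width is tied to the length of the WT peaks that the rule favours.

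The share of members rose with width and with G and C content, and was lowest in the regions with the most repeats and the highest enrichment. In the narrowest quintile of well-covered regions 23 of 8302 (0.277%) were members, and in the widest quintile 334 of 8302 (4.02%). Members made up 0.759% of the quintile with the lowest G and C content and 2.90% of the quintile with the highest. They made up 183 of 8302 regions in the quintile with the fewest masked bases and 0.578% of the quintile with the most, and 3.22% of the quintile with the lowest fold enrichment and 0.373% of that with the highest. Regions with more tags in βRapKO had the same trends with width (0% in the narrowest and 3.08% in the widest quintile) and fold enrichment (1.83% in the lowest and 0.0964% in the highest). The widest quintile alone held 334 of the 646 members.

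**Figure D4:**
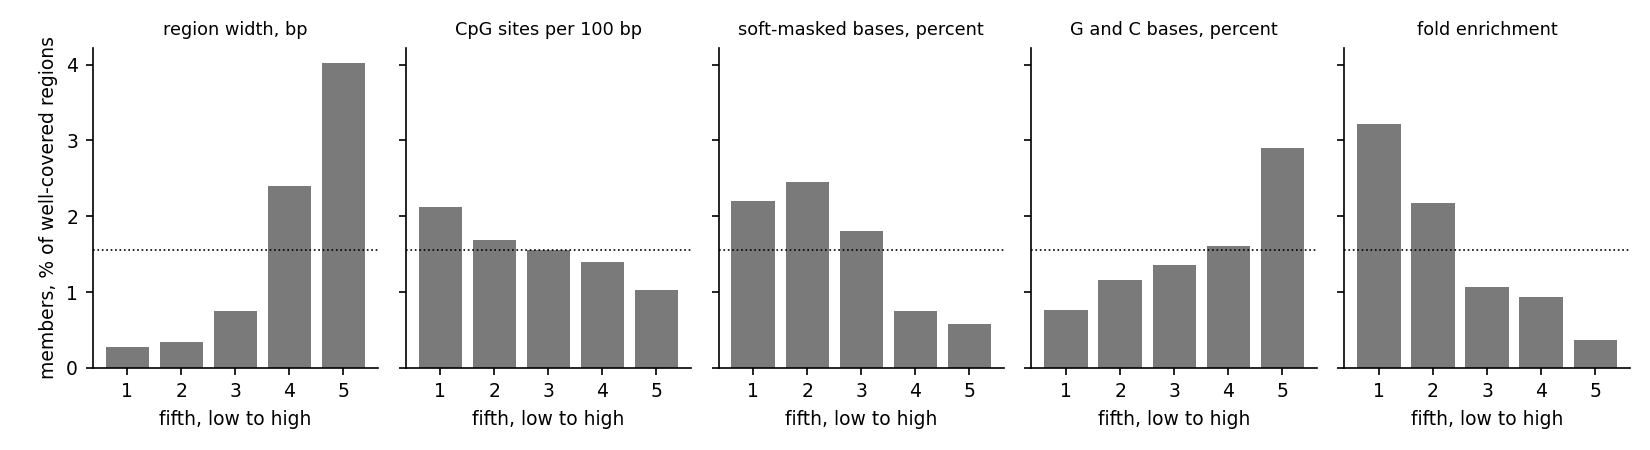
Share of members by quintiles of the 41508 well-covered regions. Bars give members as a percentage of the regions in each quintile, for region width, CpG sites per 100 bp, soft-masked bases, G and C bases and fold enrichment, with the quintiles from low to high on the x axis. The dotted line is the share over all well-covered regions (1.56%). The share reaches 4.02% in the widest quintile and 3.22% in the quintile with the lowest fold enrichment. Regions with more tags in βRapKO, not drawn, had the same trends with width and fold enrichment only. They made up 0.578% of the quintile with the highest G and C content and 1.35% of the most masked quintile.

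The members lay nearer to genes than other regions did. Exons of protein-coding genes were overlapped by 252 members away from gene starts (39.0%), against 26.0% of all well-covered regions. Introns held 147 members (22.8%), against 9550 of 41508 regions in all,, lncRNA genes 36 (5.57%, against 5.94%) and intergenic sequence 178 (27.6%, against 41.6%). The median distance to the nearest gene start was 28.2 kb in the members and 43.4 kb over all regions. A window of 200 bp with at least 50% G and C bases and an observed to expected CpG ratio of at least 0.6 was found in 446 members (69.0%), against 74.2% over all regions. By chromosome, the share of members was highest on chromosomes 9 (2.33%), 11 (2.27%) and 17 (2.15%) and lowest on chromosomes 3 (0.997%) and 10 (1.05%). Of the members, 103 lay within 100 kb of another member and 14 within 10 kb. No such count was made for other regions, so these values do not show whether the members cluster.

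Where WT peaks ran on beyond those of βRapKO, the extra sequence was poorer in CpG sites. A part of at least 200 bp covered in both WT libraries and in no βRapKO library was found in 291 members (45.0%), against 2.28% of all well-covered regions. In the 283 of them that also had at least 200 bp covered in all 4 libraries, the part covered in WT alone had a median length of 724 bp and 1.68 CpG sites per 100 bp, against 2.15 in the common part. It was poorer in CpG sites than the common part in 206 of these members (72.8%). The same held for 81.5% of all 931 well-covered regions with such parts. Parts covered in both βRapKO libraries and in no WT library were also mostly poorer in CpG sites than the common part. This was so in 206 of 244 regions with more tags in βRapKO (84.4%) and in 89.9% of 2824 well-covered regions. Extra sequence poor in CpG sites was therefore not particular to the members or to WT. The part covered in WT alone had a median length of 327 bp over all 931, members included. At Nr4a1 the WT part was 2166 bp long and had 2.45 CpG sites per 100 bp, against 3.50 in the common part.

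The spread between libraries of a genotype was wide in the members. The WT libraries differed by more than 1.5 times in 114 members (17.6%), against 6.62% of all well-covered regions, and the βRapKO libraries in 155 (24.0%), against 7.17%. Among the 352 regions with more tags in βRapKO, these shares were 16.8% and 18.2%, so a wide spread was not particular to the members. All WT libraries exceeded all βRapKO libraries by more than 1.5 times at 136 of the 41508 well-covered regions, all of them members, as the rule requires. At 466 members (72.1%, against 90.2% over all regions) each library had exactly 1 peak, and at 162 (25.1%, against 6.28%) the WT libraries had more peaks than the βRapKO libraries. Just inside the rule were a region near Gng13, a region over exons 1 to 3 of Lck and a region at Fndc8 and Nle1, with ratios of 1.50014, 1.50024 and 1.50031. Just outside were regions at Npl and Lpar2 and between genes on chromosome 2, with ratios of 1.49937, 1.49987 and 1.49992. The lowest library had exactly 50 tags in 24 members, and 23 regions past the fold had 49 tags in their lowest library. Without βRapKO replicate 2 the rule found 2158 regions, without WT replicate 1 1178, without WT replicate 2 1086 and without βRapKO replicate 1 1149.

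No member passed a test across all regions. Over the 75052 regions of the autosomes and sex chromosomes with a peak in all 4 libraries, tested by edgeR's quasi-likelihood fit, 0% passed an FDR of 0.05 with a fold-change above 1.5 in either direction. The smallest adjusted p was 0.173 over all regions and 0.358 among the members. An unadjusted p under 0.05 was given to 4363 regions, 2950 of them lower and 1413 higher in βRapKO. This balance turned with the scaling, with 656 lower and 3842 higher when library size was taken as tags in peaks, 1802 and 2253 with TMM, and 365 and 598 with DESeq2. Among well-covered regions 4.57% had such a p and were lower in βRapKO, and 538 members did, a count the rule itself raises. DESeq2 called 0 regions lower and 2 higher, and limma called 0 in either direction. Nothing in the labels says that the libraries came from separate animals, so these values measure only the spread between these libraries.

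The libraries held 25585533 to 31330751 tags after removal of duplicates, and 29.2% to 35.4% of these lay in peaks, the highest share and the most peaks being those of WT replicate 2. The part of these differences in the results was not tested. Rptor, the targeted gene, had 9 well-covered regions with ratios from 0.931 to 1.31 and no member, and methylation there does not check the deletion. Cell types cannot be checked by expression in these data. The start sites of Ins1, Ins2, Pdx1, Gcg, Sst, Cpa1, Cela1, Krt19, Pecam1 and Ptprc lay in no peak of any library, and that of Cdh5 lay in a peak of WT replicate 2 alone.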

How the data were processed

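Methylated DNA of islets was measured by MeDIP-seq in 2 WT and 2 βRapKO libraries, sequenced in 50 cycles per the study's methods. Reads were aligned by the authors to mm10 with Bowtie2 2.2.5. Peaks were called by the authors in each library on its own, with no control, 1 tag kept per position and a p cutoff of 1e-05. The file headers name MACS 1.4.2 and the submitters' processing notes MACS 0.14.2. For each peak the deposited files give a count of tags, not normalized, the −log10 of the p multiplied by 10, and the fold enrichment over the local background. Tags outside peaks were not used here.

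Peaks were joined, counted and scaled as described above (Python 3.11.15, NumPy 2.4.6, pandas 2.3.3). The rule, the members and the gene lists were chosen with earlier results of these data known. edgeR 4.0.16 (R 4.3.3), with genotype as the only term and tags after filtering as library size, was fitted to regions with a peak in all 4 libraries and adjusted by Benjamini-Hochberg. The method was tested on simulated data. limma 3.58.1 on log2(CPM + 0.5) and DESeq2 1.42.0 were alternatives. Groups and replicate numbers came from the sample titles. Genes came from GENCODE M21 and sequences from RefSeq, both GRCm38, and exon numbers follow 1 principal transcript of each gene.

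Named regions were the 10 with the largest ratio, the 10 with the highest CPM, the 10 with the highest CPM at gene starts, all members in listed genes, those in genes with at least 3 members, and 3 on each side of the ratio of 1.5. Sequences were to be printed for the first 5, 5 and 3 of these rules. Windows in untranslated parts of transcripts were skipped, the repeats of the highest CPM were left out, and the Nkx6-1 window was added, after the values were seen. Some named genes, regions and sequences are not reported here.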

Additional observations from a re-analysis of the deposited data

How the results depend on the processing

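The number of regions that met the rule depended on most choices. It was 646 as reported, 767 with total tags as library size, 437 with TMM, 606 with an overlap of 50%, 599 with both βRapKO libraries below both WT libraries and 466 with 1 peak in each library. It was 239 with tags in peaks as library size, of which all 239 were members. It was 1288 by tags per kb of covered bases, of which 36 were members. It was 233 with peaks of −log10(p) multiplied by 10 of at least 100, and 166 members overlapped one of these. Tag minimums of 30 and 100 gave 1233 and 120 regions, a fold of 2 gave 41, and every WT library above 1.5 times every βRapKO library gave 136. Leaving out 1 library gave 1086 to 2158 regions, which held 419 to 531 of the members. Pairing libraries by replicate number, each pair past 1.5 times, gave 209. The numbers share no stated origin, and deviations of same-numbered libraries correlated by 0.0477, so this pairing is only a number. With the replicate block edgeR called 0 regions in either direction, and 4731 had an unadjusted p under 0.05. No setting called a region lower in βRapKO, and DESeq2 alone called regions higher, 2 of them. The cause of these changes was not tested.

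All 55 named regions were lower in βRapKO as reported. By tags per kb, 13 turned, among them those with log2 fold-changes of 0.16 (Ust), 0.18 (near Pou3f1), 0.01 (Cpxm2), 0.11 (near Eif3e), 0.20 (near A26c2), 0.08 (near Ankrd7), 0.10 (Cacna1h), 0.02 (Syt7), 0.06 (Tacc2), 0.05 (Btbd16), 0.18 (Piezo1) and 0.14 (Afg3l1). The adjustment divides tags by the covered length, which was longer in WT there. With 1 library left out, Il17c ran from -1.10 to 0.17 and Afg3l1 from -1.35 to 0.09, turning without WT replicate 1, and Ndrg2 (0.24) turned with an overlap of 50%, where the joined region differs. Stricter peaks left 19 of the 55 with a value and 50% overlap 54. Depth limited regions near 50 tags in a library, of which 24 were members at the minimum.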
